A study of Mus musculus with 6 samples.

Results

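The genes described here encode the core of the angiotensin and endothelin systems and were taken by symbol from the count table of an aortic RNA-seq experiment. They are 10 of the 55487 genes in the table: Agt, Ace, Agtr1a, Agtr1b, Agtr2 and Mas1 of the angiotensin system, and Edn1, Ece1, Ednra and Ednrb of the endothelin system. Of these, 7 passed the count filter and were tested, 2 (Agt and Agtr1a) had counts below the filter, and 1 (Agtr2) had a count of 0 in every library. In aortas that had lost Prdm16 from smooth muscle, none of the 7 tested genes differed from the control at a false discovery rate (FDR) under 0.05. The endothelin A receptor gene Ednra was the tested member whose groups did not overlap, at 1.23-fold the control level with an unadjusted p of 0.0496 and an FDR of 0.225 by edgeR's quasi-likelihood test. Of all 16565 tested genes, 27.9% had groups that did not overlap and 22.1% an unadjusted p under 0.05. With 7 members tested, a count of 1 cannot be told apart from either share.

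Bulk RNA-seq was performed on aortas of 3 Prdm16 iSM KO mice and 3 control mice. All were males on a C57BL/6 background that carried the tamoxifen-inducible Myh11-CreERT2 transgene, in which a promoter active in smooth muscle drives Cre from the Y chromosome. The iSM KO mice were Prdm16 F/F, with exon 9 flanked by loxP sites, and the controls, labelled WT, were homozygous for the wild-type allele. Tamoxifen was injected in both groups from 8 weeks of age on 10 days, with a short break midway. After that, 2 weeks of washout and a further 60 days passed before tissue was taken, with no other treatment (labelled baseline). The adventitia, the outer layer of the vessel wall, had been removed under a stereoscope. Each sample was a piece of vessel wall and not a population of sorted cells, so for every gene below fewer cells of a type and less RNA per cell cannot be told apart.

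In the renin-angiotensin system, angiotensinogen (Agt) is the secreted precursor from which renin releases angiotensin I, and angiotensin-converting enzyme (Ace), a membrane peptidase rich on endothelium, trims that to angiotensin II. Angiotensin II constricts arteries through type 1 (AT1) receptors on smooth muscle, which mice encode with a pair of genes, Agtr1a and Agtr1b. The type 2 receptor (Agtr2) and Mas1, the receptor of angiotensin-(1-7), are generally described as opposing AT1 signals. In the endothelin system, endothelial cells secrete the precursor of endothelin-1 (Edn1), which the peptidase Ece1 converts to the active peptide. Ednra, the receptor of smooth muscle, mediates constriction, while Ednrb on endothelium promotes relaxation and clears the peptide.

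Libraries held 24911609 to 40460467 counts, with control 3 the shallowest. Control 3 also had the lowest share of counts in protein-coding genes, 59.0% against 64.6% to 67.6% in the others. Levels are given as counts per 1000000 counts of a library (CPM) scaled with TMM factors, and intervals on single libraries cover counting error only. Prdm16, the targeted gene, had 183, 223 and 179 CPM in controls 1 to 3 and 93.8, 113 and 79.8 CPM in iSM KO mice 1 to 3. All iSM KO libraries lay below all controls, at 0.490-fold the control level with an FDR of 0.00265 in the same edgeR test, as counts over the whole gene and not over the floxed exon. Smooth muscle markers (Acta2, Myh11, Tagln and others, 10 genes) summed to 24430 to 29340 CPM, against 343 to 1200 CPM for 10 endothelial markers. Among the smooth muscle markers 3 of 10 were higher in iSM KO aortas (Actg2, Des and Myocd), as was 1 of 5 tested cardiomyocyte markers (Ryr2). Lower were 7 of 9 tested adipocyte markers and 2 of 10 fibroblast markers (Clec3b and Scara5). An FDR of 0.05 was passed by 0 of 10 endothelial, 0 of 8 macrophage and 0 of 7 tested Schwann cell markers. Over all tested genes, 4.26% were higher and 3.3% lower at this FDR. Of the 10 fibroblast markers, 9 had negative log2 fold changes (median of the list -0.68). By edgeR 8 of the 10 had an unadjusted p under 0.05, against 22.1% of all genes. All 8 macrophage markers were negative (median -0.57), 2 with an unadjusted p under 0.05. Of the mast cell markers 1 was tested and not called, and none of 5 melanocyte markers had enough counts.

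To compare levels between genes, CPM were divided by the kilobases of annotated exons. In the controls Ace stood highest, at 69.3 CPM per kb (range 42.7 to 88.4), followed by Ece1 at 26.5 (15.8 to 35.9). The converting enzymes of both systems were thus far above the genes of their own ligands and receptors, and neither overlapped the next gene in the order. Edn1 (2.19 CPM per kb), Ednra (1.52) and Agtr1b (1.26) followed, and neighbours among these overlapped across the controls. After a gap without overlap came Ednrb (0.224 CPM per kb), Mas1 (0.222), Agtr1a (0.123) and Agt (0.0799), each overlapping its neighbour, and Agtr2 came last at 0. By mean level in the iSM KO aortas, Ace (60.04 CPM per kb) and Ece1 (19.6) again led.

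**Figure D1:**
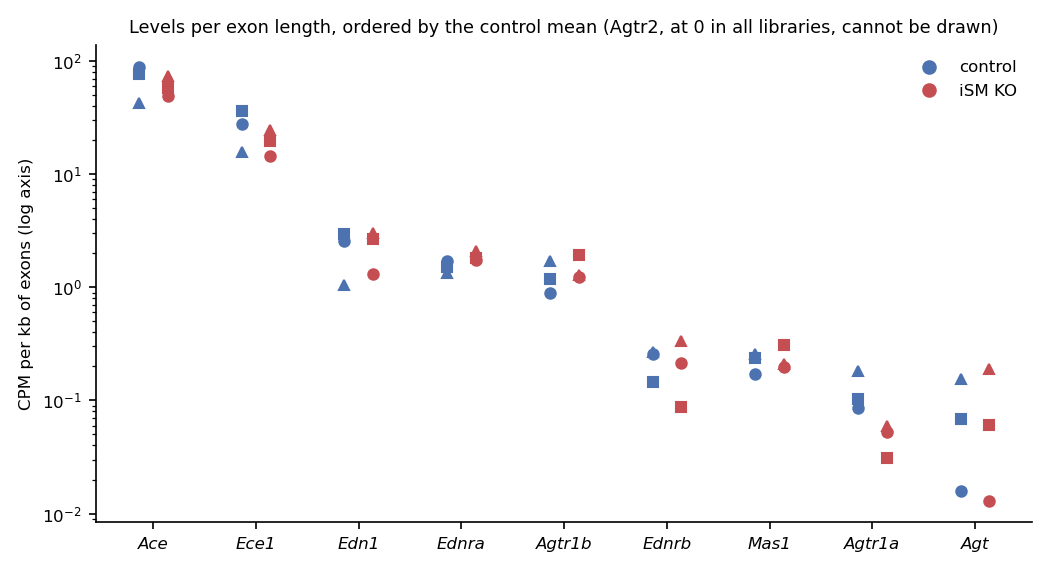
CPM per kilobase of exons on a log axis for each member in each control (blue) and iSM KO (red) library, with circles, squares and triangles for replicates 1, 2 and 3 and genes ordered by the control mean. Ace and Ece1 stand above the other genes in every library, and Agtr2, with 0 counts, cannot be drawn on this axis.

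The precursor of the angiotensin system was almost unread in this tissue. Agt (ENSMUSG00000031980, chromosome 8 of GRCm38, 124556534 to 124569706) had 1, 5 and 7 counts in the controls and 1, 4 and 13 in the iSM KO libraries. The groups overlapped fully, and iSM KO 3 held most of the iSM KO counts. Without a count filter the edgeR log2 fold change was 0.18 with an FDR of 0.956. The same library, iSM KO 3, had the highest count of renin (Ren1), 15 against 0 to 4 elsewhere, and the highest sum of 8 kidney markers, 4.08 CPM against 0.866 to 1.275 CPM in the others. Those kidney markers included 65 counts of Kap in iSM KO 3 and 1 to 6 elsewhere, and their part in the Agt and Ren1 counts was not tested. Adipocytes also express Agt. The summed adipocyte markers were at 43.0 to 220 CPM in the controls and at 17.7 to 23.1 CPM in the iSM KO libraries, and their part in the Agt counts was not tested.

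The enzyme that forms angiotensin II was the most abundant member. Ace (ENSMUSG00000020681, chromosome 11, 105967945 to 105989964) was at 467.3, 405.5 and 225.8 CPM in controls 1 to 3 and at 258.4, 304.1 and 389.7 CPM in iSM KO mice 1 to 3. Control 3 was the lowest of all libraries and control 1 the highest, so the iSM KO values fell inside the control range. The means were 366 ± 126 and 317 ± 66.7 CPM (SD, n = 3). By edgeR the log2 fold change was -0.21 ± 0.247 (SE) and the FDR 0.667. The 95% interval of the fold change ran from 0.588 to 1.28. Without control 1 the log2 fold change was 0.01 and no longer negative. A noncoding gene on the opposite strand, Gm11651, shares exon sequence with Ace, but at 20 to 88 counts a library against 5384 to 15654 for Ace it could add little if reads had been counted without strand, a setting not given in the sources used here.

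Mouse AT1 receptors come from paralogous genes, so the first question was whether their reads can be told apart. The annotated coding sequences of Agtr1a and Agtr1b are each 1077 bp long and differ at 99 positions, an identity of 90.8%. The longest run that they share is 66 bp, and 0 of 928 windows of the read length, 150 bp, were identical between them. The first and last 90 coding bases, taken from the GENCODE transcripts on GRCm38 in 5′ to 3′ direction with differing bases in capitals, show how the differences are spread. The start of the reading frame carries 8 of them and the end, which encodes the tail of the receptor inside the cell, carries 17.
Agtr1a, coding bases 1 to 90: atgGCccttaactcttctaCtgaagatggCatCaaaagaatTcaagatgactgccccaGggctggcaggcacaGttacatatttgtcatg
Agtr1b, coding bases 1 to 90: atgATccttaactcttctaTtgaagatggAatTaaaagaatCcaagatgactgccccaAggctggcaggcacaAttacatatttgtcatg
Agtr1a, coding bases 988 to 1077: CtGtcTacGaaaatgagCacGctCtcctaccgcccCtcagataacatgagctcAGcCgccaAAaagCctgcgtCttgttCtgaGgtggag
Agtr1b, coding bases 988 to 1077: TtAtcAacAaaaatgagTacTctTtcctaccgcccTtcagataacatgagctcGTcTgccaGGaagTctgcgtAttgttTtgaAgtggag

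Agtr1b supplied most AT1 receptor counts in this aorta. Agtr1b (ENSMUSG00000054988, chromosome 3, 20314473 to 20367177) was at 1.91, 2.52 and 3.69 CPM in the controls and at 2.65, 4.16 and 2.77 CPM in the iSM KO libraries. The groups overlapped, with control 1 lowest and iSM KO 2 highest. Its log2 fold change was 0.25 ± 0.283 (SE) with a 95% interval from -0.39 to 0.89 and an FDR of 0.653 in edgeR's quasi-likelihood test.

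Agtr1a (ENSMUSG00000049115, chromosome 13, 30336441 to 30382867) had 8, 11 and 12 counts in the controls and 6, 3 and 6 in the iSM KO libraries. Every iSM KO library was below every control, also after scaling to CPM (0.239 to 0.503 against 0.0860 to 0.164), but these counts were too low for the filter. Gm48161, on the same strand, overlaps the gene without sharing exons and had 32 to 50 counts. In the edgeR fit without a count filter the log2 fold change was -1.31 ± 0.691 (SE) with an unadjusted p of 0.0688 and an FDR of 0.398. Agtr1a took 11.1%, 10.2% and 12.0% of AT1 receptor counts in controls 1 to 3 and 5.26%, 2.03% and 5.61% in iSM KO mice 1 to 3. Exact binomial 95% intervals ran from 4.92% to 20.7% in control 1 and from 2.09% to 11.8% in iSM KO 3, for example, and overlapped between all libraries of different groups except control 3 (from 6.36%) and iSM KO 2 (to 5.81%). The log2 ratio of Agtr1b to Agtr1a counts (0.5 added to each) was 2.92, 3.08 and 2.82 in the controls and 4.06, 5.38 and 3.97 in the iSM KO libraries, a difference of 1.52. A two-sided exact permutation test gave p = 0.1, the smallest that 3 against 3 libraries allow, and 0.3 after adjustment over the 3 ratios tested.

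Of the receptors usually set against AT1, Agtr2 was not detected and Mas1 was low but above the count filter. Agtr2 (ENSMUSG00000068122, chromosome X, 21484544 to 21489164) had 0 counts in all 6 libraries, where a floor of 3 counts stands at 0.0742 to 0.120 CPM (before TMM scaling) and the exact 95% upper limit of a count of 0 at 0.0912 to 0.148 CPM, depending on the library. Mas1 (ENSMUSG00000068037, chromosome 17, 12841079 to 12868143) was at 0.448, 0.625 and 0.671 CPM in the controls and 0.515, 0.802 and 0.548 CPM in the iSM KO libraries, from 15 to 28 counts each. The groups overlapped, and the log2 fold change of 0.10 ± 0.333 (SE) had a 95% interval from -0.65 to 0.85 and an FDR of 0.893 by edgeR. Airn, a long noncoding RNA on the opposite strand, spans the Mas1 locus without sharing exons with it and had 266 to 573 counts, so Mas1 counts are uncertain if strand was not used.

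**Figure D2:**
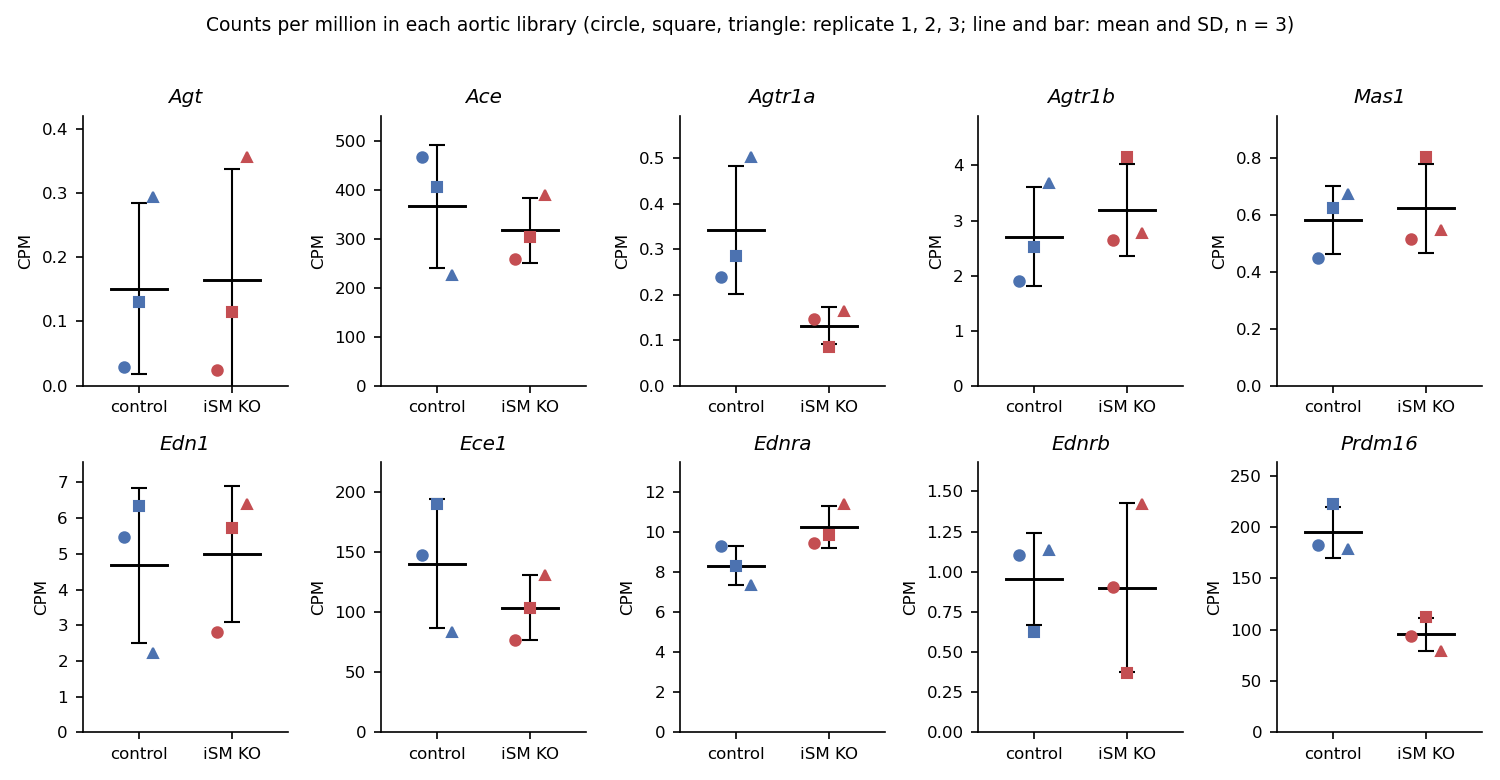
CPM of 9 members and of Prdm16 in each library, on axes that start at 0, for control (blue) and iSM KO (red) aortas, with circles, squares and triangles for replicates 1, 2 and 3 and lines and bars for the mean and SD of 3 libraries. The groups are apart for Agtr1a, Ednra and Prdm16 and overlap for the other genes, and the Agt bar is cut at 0.

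Edn1, the ligand gene, varied more between libraries of a group than between groups. Edn1 (ENSMUSG00000021367, chromosome 13, 42301476 to 42307990) was at 5.46, 6.35 and 2.22 CPM in the controls and at 2.82, 5.73 and 6.41 CPM in the iSM KO libraries. Control 3 and iSM KO 1 were low, the other 4 libraries lay between 5.46 and 6.41 CPM, and the groups overlapped. Gm47118, which shares exon sequence on the opposite strand, had 3 to 9 counts against 53 to 244 for Edn1. The log2 fold change was 0.07 ± 0.390 (SE), with a 95% interval from -0.81 to 0.95 and an FDR of 0.940 by edgeR, and its sign turned when control 3, iSM KO 2 or iSM KO 3 was left out (-0.26, -0.04 and -0.15).

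Ece1, which activates endothelin-1, had the lowest fold change among the tested members. Ece1 (ENSMUSG00000057530) lies on chromosome 4, from 137862237 to 137965229, 16.45 Mb from Prdm16 on the same chromosome. It was at 147.3, 190.4 and 83.6 CPM in the controls and at 76.7, 103.5 and 130.9 CPM in the iSM KO libraries. Controls 1 and 2 lay above all iSM KO libraries, while control 3 lay below all but iSM KO 1. The means of 140 ± 53.7 and 104 ± 27.1 CPM (SD, n = 3) stood at a log2 fold change of -0.44 ± 0.279 (SE), with an unadjusted p of 0.149 and an FDR of 0.395 in the edgeR test. The 95% interval of the fold change ran from 0.476 to 1.14. Gm13012, on the opposite strand, overlaps Ece1 without sharing exons and had 0 to 12 counts.

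Neither endothelin receptor gene passed the FDR, and the fold changes of Ednra and Ednrb differed in sign. Ednra (ENSMUSG00000031616, chromosome 8, 77663031 to 77724464) was at 9.31, 8.33 and 7.38 CPM in the controls and at 9.47, 9.89 and 11.4 CPM in the iSM KO libraries. Every iSM KO library was above every control, with iSM KO 1 only slightly above control 1. The means were 8.34 ± 0.967 and 10.3 ± 1.04 CPM (SD, n = 3), and the log2 fold change of 0.30 ± 0.131 (SE) had a 95% interval from 0.0006 to 0.59. The opposite-strand gene 4933431K23Rik shares exon sequence with Ednra but had 0 to 5 counts against 176 to 418. The unadjusted p passed 0.05 in neither DESeq2 nor limma-voom. Over all 13 other settings, the leave-one-out fits included, the Ednra log2 fold change ran from 0.21 to 0.44 and its FDR from 0.129 to 0.474.

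Ednrb (ENSMUSG00000022122, chromosome 14, 103814625 to 103844402) was at 1.10, 0.625 and 1.13 CPM in the controls and at 0.908, 0.373 and 1.42 CPM in the iSM KO libraries. The lowest and the highest value both came from iSM KO libraries, with the controls between them. The log2 fold change was -0.06 ± 0.466 (SE), with a 95% interval from -1.12 to 0.99 and an FDR of 0.956 by edgeR. The log2 ratio of Ednrb to Ednra counts was -3.15 ± 0.520 in the controls and -3.68 ± 0.884 in the iSM KO libraries (SD, n = 3). Its difference of -0.53 gave p = 0.6 in a two-sided exact permutation test, or 0.9 after adjustment over the 3 ratios.

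Across the 7 tested members the call rate was 0. Over all genes, 1252 of 16565 (7.56%) had an FDR under 0.05 by edgeR. With Prdm16 loss 705 genes were higher (4.26% of all) and 547 lower (3.3% of all). With 7 members tested, a count of 0 cannot be told apart from the share over all genes. A change of more than 2-fold in addition was found for 461 genes (2.78%). Of the 7, 4 had positive and 3 negative log2 fold changes, with a median of 0.07 against -0.01 over all tested genes. At an unadjusted p under 0.05 the count was 1 in edgeR and 0 in DESeq2 and limma-voom. In the edgeR fit without a covariate, the 95% intervals left out a 2-fold change in either direction for Ace, Agtr1b, Mas1, Edn1 and Ednra. They did not leave out a fall of 2-fold for Ece1 and Ednrb. With the endothelial marker sum as a covariate (described below), the log2 intervals of Mas1, Edn1 and Ednrb reached 1.08, 1.46 and 1.29, past a 2-fold rise.

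**Figure D3:**
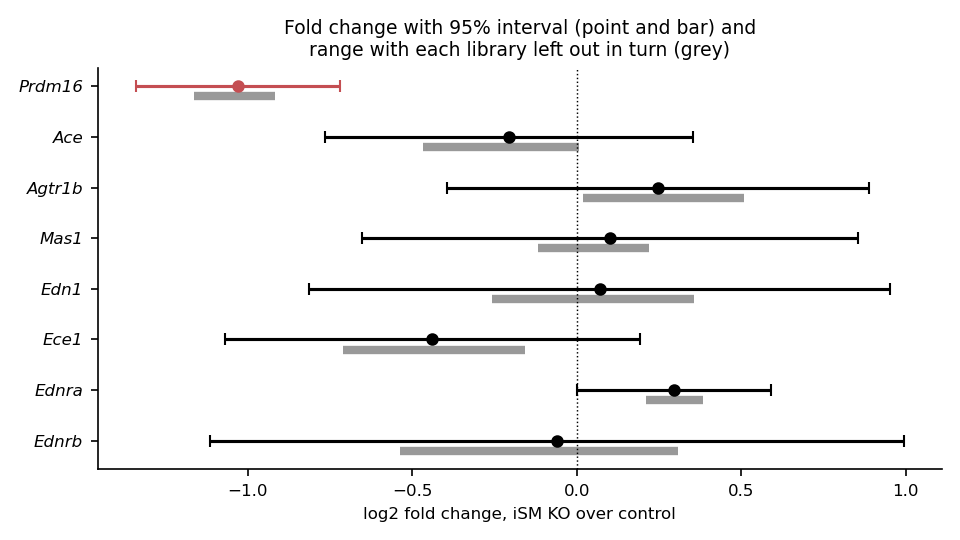
Log2 fold change of iSM KO over control for the 7 tested members and Prdm16, with the 95% interval of the edgeR fit (point and bar) and the range over fits that left out 1 library each (grey). Prdm16 lies wholly below 0, Ednra touches 0 with the lower end of its interval, and the other intervals include 0.

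The libraries also differed in the amount of endothelial transcripts, and over all 6 libraries Ece1 had the highest correlation with them among the 7 tested members. The 10 endothelial markers (Pecam1, Cdh5, Vwf and others) summed to 1002, 1200 and 606 CPM in controls 1 to 3 and to 343, 557 and 910 CPM in iSM KO mice 1 to 3. All 10 had negative log2 fold changes (median -0.61), none with an FDR under 0.05 by edgeR and 1 with an unadjusted p under 0.05. Over the 6 libraries, Ece1 followed this sum with Pearson's r = 0.933 (exact permutation p = 0.00833, 0.0583 after Benjamini-Hochberg adjustment over the 7 members) and a Spearman rank correlation of 0.943 (exact permutation p = 0.0167, adjusted 0.117). Without control 2 and iSM KO 1, the libraries farthest from the median, r was 0.888. Ace gave r = 0.804 (exact permutation p = 0.0611, adjusted 0.214) and a rank correlation of 0.771 (exact permutation p = 0.103, adjusted 0.360), with r = 0.863 without the same libraries. Edn1 gave r = 0.685 (exact permutation p = 0.225, adjusted 0.525) and a rank correlation of 0.486 (exact permutation p = 0.356, adjusted 0.622), with r = 0.475 without the same libraries. For the other 4 members r was -0.447 (Agtr1b), -0.168 (Mas1), 0.00654 (Ednra) and 0.145 (Ednrb), and the same omission took these to -0.950, -0.964, 0.449 and 0.689, so they rest on those libraries. None of the 7 passed the adjustment, and 3 libraries a group are too few for a correlation within groups.

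Values relative to the endothelial markers were computed after the members' values had been seen. Ece1 amounted to 14.7%, 15.9% and 13.8% of the endothelial sum in the controls and to 22.4%, 18.6% and 14.4% in the iSM KO libraries. With the endothelial sum as a covariate in the edgeR fit, the log2 fold change of Ece1 went from -0.44 to 0.13 (FDR 0.710) and that of Ace from -0.21 to 0.24 (FDR 0.544). In the same fit Edn1 had a log2 fold change of 0.84 ± 0.271 (SE, unadjusted p = 0.0130, FDR 0.133) and Ednra one of 0.44 ± 0.140 (SE, unadjusted p = 0.0123, FDR 0.129). All 7 members were higher in the iSM KO libraries relative to the endothelial sum, which was itself lower in mean there, by 0.30 (Ece1) to 0.99 (Ednra) on the log2 scale. Ednra and Edn1 were without overlap between the groups. The share of all tested genes without overlap on this scale was not computed, so the separation cannot be called particular to these genes. Ednra made up 0.929%, 0.694% and 1.22% of the endothelial sum in the controls and 2.77%, 1.78% and 1.26% in the iSM KO libraries, and Edn1 made up 0.545%, 0.529% and 0.367% of the endothelial sum in the controls and 0.824%, 1.03% and 0.704% in the iSM KO libraries. For both the exact permutation p was 0.1, the smallest possible (0.28 adjusted over 7 members). The FDR of all 7 members stayed above 0.05 under this covariate too.

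**Figure D4:**
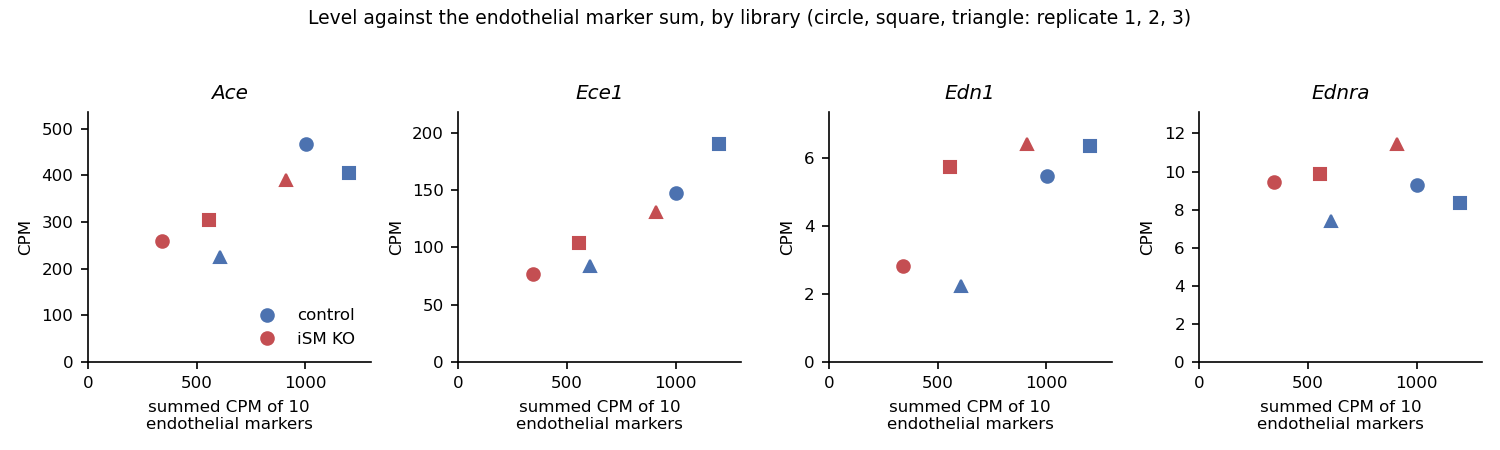
CPM of Ace, Ece1, Edn1 and Ednra in each library (vertical axes, from 0) against the summed CPM of 10 endothelial markers (horizontal axes), for control (blue) and iSM KO (red) aortas. Ece1 rises with the marker sum (r = 0.933). For Ednra every iSM KO point lies above every control point. Marker sums were 343 to 910 CPM in iSM KO libraries and 606 to 1200 CPM in controls, so the groups share only part of the range.

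Of the other genes of the renin-angiotensin system, 1 of 14 tested was called, against 7.56% of all genes. Agtrap, whose product binds the AT1 receptor and promotes its uptake from the cell surface, was at 26.8, 27.0 and 27.3 CPM in the controls and at 20, 20.06 and 22.75 CPM in the iSM KO libraries. The groups were well apart, with a log2 fold change of -0.37 ± 0.0871 (SE) and an FDR of 0.0364 by edgeR. That call is at the edge of the threshold: it was kept under 6 of 13 other settings and lost when any 1 library other than iSM KO 3 was left out (FDR 0.0562 to 0.179). Enpep, the aminopeptidase that turns angiotensin II into angiotensin III, had a log2 fold change of 0.69 ± 0.190 (SE) with an FDR of 0.0641 by edgeR. Its FDR was under 0.05 in 4 of 13 other settings, DESeq2 among them (0.00415). With the endothelial sum as covariate the FDR was 0.216. Enpep was named after its values were seen. Renin was hardly read, with 4, 0 and 4 counts of Ren1 in the controls and 0, 2 and 15 in the iSM KO libraries.

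Cma1, a mast cell chymase gene of the renin-angiotensin list, had 13, 5 and 16 counts in the controls and 0, 0 and 2 in the iSM KO libraries, below the filter. In the edgeR fit without a filter its FDR was 0.01315. Formation of angiotensin II by the Cma1 product was not tested. Summed mast cell markers were at 12.7 to 21.6 CPM in the controls and 11.4 to 13.9 CPM in the iSM KO libraries. That sum includes Cma1 itself and is mostly Kit, and the part of mast cells in the Cma1 counts was not tested. Of the other mast cell genes with low counts, Tpsb2 had 15, 1 and 14 counts in the controls and 1, 2 and 1 in the iSM KO libraries, and Hdc had 1, 5 and 7 against 0, 0 and 1. Cpa3 had 27, 6 and 15 against 9, 10 and 10, and Mcpt4 18, 0 and 7 against 1, 5 and 3. The groups overlapped for Tpsb2, Cpa3 and Mcpt4, and in the edgeR fit without a filter none of the 4 passed an FDR of 0.05 (0.0656 to 0.469).

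Among the 4 other endothelin genes, Ece2 alone was tested. Ece2, a relative of Ece1, was at 3.61, 3.15 and 2.31 CPM in the controls and at 1.25, 2.01 and 2.05 CPM in the iSM KO libraries, all lower, with a log2 fold change of -0.78 ± 0.265 (SE) and an FDR of 0.121 by edgeR. The other endothelin ligands were nearly absent, with 1 count of Edn2 in all libraries together and 0 to 14 counts of Edn3. Kel had 0 counts.

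Genes that carry the signal of these receptors inside the cell (G proteins, phospholipase C, guanine nucleotide exchange factors, arrestins and receptor kinases) spanned log2 fold changes from -0.42 to 0.53 with a median of 0.01. Of 22 tested, 0 were higher and 1 was lower in iSM KO aortas, against 3.3% lower among all genes, so the count is near the background. The called gene was Grk3, a kinase that desensitises G protein-coupled receptors, at 17.4, 18.4 and 17.2 CPM in the controls and 14.3, 11.9 and 13.3 CPM in the iSM KO libraries. Its log2 fold change was -0.42 ± 0.1004 (SE) with an FDR of 0.0381 by edgeR, kept under 5 of 13 other settings. It was lost when any 1 of the 6 libraries was left out (FDR 0.0576 to 0.179).

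Genes known to respond to angiotensin II in the vessel wall did not move in 1 direction. Of 16 tested, 1 was higher and 0 were lower, near the 7.56% called among all genes, and 6 had an unadjusted p under 0.05, against 22.1% of all genes. Of the 16, 8 had positive and 8 negative log2 fold changes, and their median was 0.02. The called gene was Rcan1, an inhibitor of the phosphatase calcineurin that calcium signals induce, at 19.9, 26.8 and 21.6 CPM in the controls and 46.9, 32.7 and 42.5 CPM in the iSM KO libraries. All iSM KO libraries were above all controls, at a log2 fold change of 0.84 ± 0.152 (SE) and an FDR of 0.0118 by edgeR. The call was kept under 12 of 13 other settings and lost without control 3 (FDR 0.0566).

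**Figure D5:**
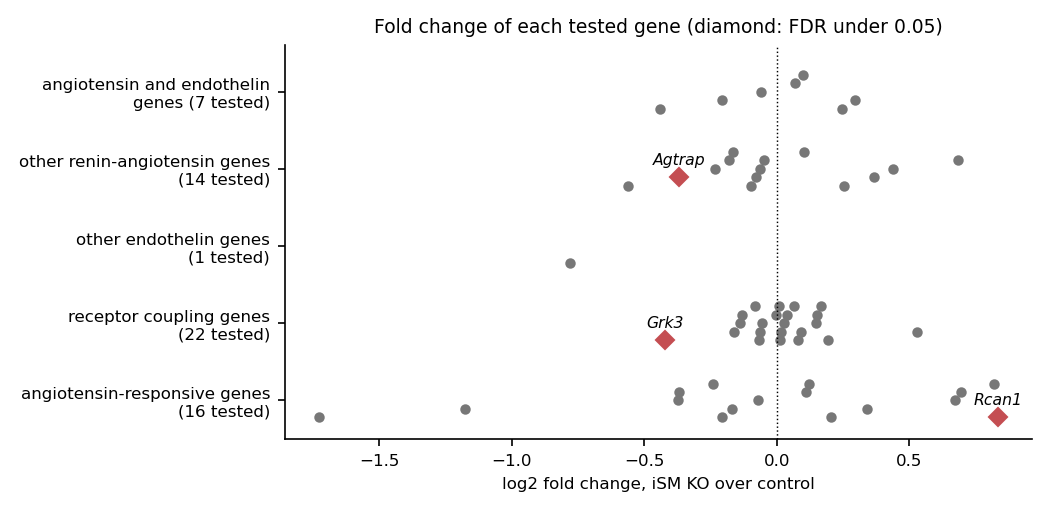
Log2 fold change of iSM KO over control (horizontal axis) for each tested gene of the angiotensin and endothelin systems and of the 4 related lists, spread vertically within a list for legibility, with red diamonds for an FDR under 0.05. Agtrap, Grk3 and Rcan1 are the called genes, and none of the 7 members is among them.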

How the data were processed

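Aortic RNA of 3 controls and 3 Prdm16 iSM KO mice was measured. The authors depleted ribosomal RNA, sequenced paired-end reads of 150 bp and quantified them with DRAGEN against the mouse reference of Ensembl release 101 (mm10), and the values deposited are estimated counts per gene, unnormalized. The DRAGEN version, the strand setting and the sharing of reads between genes are not given in the sources used here. All 6 columns were matched to samples by name.

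Counts were rounded, and genes with more than 10 counts in all libraries of at least 1 group were kept, 16565 of 55487. Groups were compared by the quasi-likelihood test of edgeR 4.0.16 (R 4.3.3, scaling by TMM, no covariate) with Benjamini-Hochberg adjustment over all tested genes, and a gene was called at an FDR under 0.05. CPM use TMM-scaled totals. Exon lengths, positions and coding sequences come from GENCODE M21 (GRCm38). Transcripts compared with blastn 2.17.0 gave no copy of a member with at least 95% identity over 100 bp. Exact permutation tests used SciPy 1.17.1. Depth was 24911609 to 40460467 counts, and no libraries agreed within sampling noise.

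The members, the 4 related lists and the 9 marker lists were chosen with earlier results of these data known. Named were all members, Prdm16, related genes past the FDR (at most 8 a list), Ren1, Edn2 and Edn3, with up to 3 examples per marker list, and Enpep, Cma1, Ece2, Kel, Tpsb2, Hdc, Cpa3, Mcpt4, Kit, Kap and overlapping genes in addition. Alternatives were DESeq2 1.42.0, limma-voom (limma 3.58.1), DESeq2 size factors, filterByExpr, no filter, blocking on the replicate number, omission of each library and no added count in ratios. The endothelial covariate, ratios and correlations, and 5 further lists, were chosen after seeing the data. Scripts were tested on simulated data. The result of 1 further gene is left out.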

Additional observations from a re-analysis of the deposited data

How the results depend on the processing

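No member passed an FDR of 0.05 under any of the 13 alternatives, and the lowest member FDR in any of them was 0.113 (Ece1 without control 3). Prdm16 was called under all 13. Over all genes, 775 passed the FDR with the replicate block, 711 with the endothelial marker sum as covariate and 513 to 1392 with 1 library left out, and 288 to 530 also passed a 2-fold change; DESeq2 called 1711. Calls among the other renin-angiotensin genes numbered 2 with DESeq2 and limma-voom, 3 without a filter, 0 with the replicate block and with the endothelial covariate and 0 to 2 with 1 library left out. Calls among receptor coupling genes numbered 2 with DESeq2 and without a filter, 0 with the block and with the covariate and 0 to 1 with 1 library left out. Calls among angiotensin-responsive genes numbered 2 with DESeq2 and limma-voom, 6 without a filter and 0 to 3 with 1 library left out. Log2 fold changes that changed sign were those of Ace (0.24 with the endothelial covariate, -0.47 to 0.0058 with 1 library left out), Ece1 (0.13 with the covariate), Ednrb (0.034 with the covariate, -0.54 to 0.31 with 1 library left out), Mas1 (-0.12 to 0.22) and Edn1 (-0.26 to 0.36). The Agtr1b to Agtr1a log2 ratio difference was 1.07 to 1.78 and that of Ednrb to Ednra -0.87 to -0.03 with 1 library left out. The causes were not tested. Numbers shared between groups gave no sign of paired samples: deviations of same-numbered libraries correlated at -0.13, -0.05 and -0.11. Of the 3 pairs, 0 correlated best with its own number. With 3 libraries a group these correlations cannot exclude a pairing, and the labels name none. Members at under 30 counts a library (Agt, Agtr1a, Mas1) have a precision set by counting, and the intervals of Ece1 and Ednrb reach a 2-fold fall.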

Other observations

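Vasoactive peptide systems next to angiotensin and endothelin were listed after the members' values had been seen, and of the natriuretic peptide genes 2 of 6 tested were higher and 0 lower at an FDR under 0.05, against 7.56% called over all genes. Corin, the protease that activates atrial natriuretic peptide, was at 0.537, 0.234 and 0.713 CPM in the controls and at 4.74, 3.93 and 3.81 CPM in the iSM KO libraries, a log2 fold change of 3.12 ± 0.340 (SE) with an FDR of 0.00096 by edgeR. Its counts were 18, 9 and 17 in the controls and 193, 137 and 139 in the iSM KO libraries. Corin therefore passed the count filter only through the iSM KO group, where it was high. Npr3, the receptor that clears natriuretic peptides, was at 18.6, 16.8 and 17.8 CPM in the controls and at 26.1, 29.6 and 29.0 CPM in the iSM KO libraries, a log2 fold change of 0.67 ± 0.0910 (SE) with an FDR of 0.00294. Both groups were fully apart for both genes, and both calls were kept under all 13 alternatives. The signalling receptors Npr1 and Npr2 had log2 fold changes of 0.01 and 0.05, and the peptide genes Nppa, Nppb and Nppc were below the filter.

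Among the other lists written then, 0 of 3 tested kinin genes, 0 of 5 adrenomedullin and CGRP genes and 0 of 5 vasopressin, apelin and steroid receptor genes passed the FDR by edgeR, with 0, 1 and 0 at an unadjusted p under 0.05. Calcrl, the shared receptor of adrenomedullin and CGRP, had the highest log2 fold change of these, 0.46 ± 0.155 (SE) with an FDR of 0.120.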
